A study of Zea mays with 12 samples.

Results

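Glutathione transferases (GSTs) and the transporter that carries glutathione conjugates were followed in maize seedlings through 6 genes, the GST genes gst2 (Zm00001d024839), gst31 (Zm00001d027557), gst19 (Zm00001d036951), gst42 (Zm00001d029699) and gst12 (Zm00001d027540) and the transporter gene MRP1 (Zm00001d046226), of 38444 features in the count table. The 6 genes were chosen by their identifiers, and the choice was made with earlier results of these same comparisons in view. For gst2 and gst31 that was a difference between the genotypes under ABA, for MRP1 a difference between WT ABA and WT MS, and for gst19 a difference between the genotypes without ABA. Why gst42 and gst12 were taken is not stated in the sources used here. The levels and fold changes of the 6 genes are therefore given as descriptions, without p-values.

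The plants carried the mop1-1 mutation, or its wild type allele Mop1, in the B73 inbred background, and homozygous mop1-1 seedlings were compared with homozygous WT siblings from 1 self-pollinated ear of a heterozygous plant. At the V3 stage the seedlings stood with their roots for 1 h in liquid MS medium with 50 µM abscisic acid (ABA) or in MS medium alone, and RNA was taken from the shoots. The 4 groups are named WT MS, WT ABA, mop1-1 MS and mop1-1 ABA, with 3 libraries each. The effect of ABA is Group A in the mutant and Group B in WT, each as ABA over MS, the effect of genotype is Group C with ABA and Group D without it, each as mop1-1 over WT, and the interaction is the difference between Groups A and B. mop1 encodes an RNA-dependent RNA polymerase of RNA-directed DNA methylation, and ABA is a hormone of the response to water shortage. None of the 6 genes lies on chromosome 2, the chromosome of mop1, since RefSeq places gst31, gst42 and gst12 on chromosome 1, gst19 on chromosome 6, MRP1 on chromosome 9 and gst2 on chromosome 10. Because mop1-1 was brought into B73 by crossing, plants of the 2 genotypes may also differ at genes linked to mop1.

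GSTs join the tripeptide glutathione to reactive, electron-poor compounds, among them herbicides and products of lipid peroxidation, which makes these compounds more soluble and less toxic. In plants the conjugates are then carried into the vacuole by ABC transporters of the MRP (ABCC) type, so that a GST and an MRP act one after the other in detoxification. In maize, GST genes are known for their induction by herbicide safeners, chemicals that protect the crop from a herbicide.

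The libraries held 38295994 to 65574775 counts, with a median of 58322593, and scaling factors (TMM) from 0.877 to 1.07. Levels are given in CPM, a gene's counts relative to the total of its library after this scaling. A feature was tested when it reached 0.58 CPM in at least 3 libraries, which 26401 features did, all 6 genes among them, and a gene of the 6 had 806 to 19571 counts in a library, so that the spread between replicates limited precision more than counting did. WT MS replicate 3 had a chi-square per degree of freedom of 208 and 167 against its replicates, where the other pairs within groups lay between 33.3 and 96.1, but its mean correlation with them over genes (0.965) was close to that of replicates 1 and 2 (0.966 and 0.969). The labelled tissue was checked with 3 leaf genes and 2 root genes. They are those that could be joined to the count table, of 17 leaf and 4 root genes listed by their RefSeq names. The photosystem genes psbs1 and psad1 had group means of 1752 to 2229 CPM and 342 to 413 CPM. PPDK (Zm00001d010321, chromosome 8), which encodes a pyruvate phosphate dikinase, had 38.5 to 47.1 CPM. RefSeq names another PPDK gene, on chromosome 6, that could not be joined. Which of them serves C4 photosynthesis was not checked, so PPDK is a weak check of the tissue. The root gene nas2 had 0 counts in 11 of 12 libraries, and nrt2.2 had 0 to 20 counts in a library. None of the 3 leaf genes was called in any comparison.

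gst31, which encodes a GST, was the member with the widest difference between the genotypes under ABA. WT ABA held its lowest values, 31.4, 44.8 and 37.6 CPM in replicates 1, 2 and 3. In mop1-1 ABA the values were 156, 84.7 and 143 CPM. Each mop1-1 ABA library therefore lay above each WT ABA library, and the means were 128 ± 38.01 CPM (SD, n = 3) and 37.9 ± 6.73 CPM (SD, n = 3). Without ABA the genotypes overlapped, with 72.9, 65.3 and 167 CPM in WT and 111, 72.8 and 71.0 CPM in mop1-1. The high WT MS value belonged to replicate 3, the library with the high chi-square values, and it made the WT MS mean 102 ± 56.8 CPM (SD, n = 3), beside 84.9 ± 22.6 CPM (SD, n = 3) in mop1-1 MS.

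On the log2 scale, gst31 was 1.76 (SE 0.36) higher in mop1-1 ABA than in WT ABA. In WT it was lower with ABA than without (log2 fold change -1.42, SE 0.35), and in mop1-1 the estimate had the other sign (0.59, SE 0.35). The interaction estimate was 2.02 (SE 0.49). In order of mean level the groups ran mop1-1 ABA, WT MS, mop1-1 MS and WT ABA, and among neighbours in this order the libraries of mop1-1 MS and WT ABA did not overlap, whereas the other neighbours did. Without WT MS replicate 3 the Group B fold change shrank to -0.86, the Group D fold change moved from -0.26 to 0.30, and the interaction was 1.46. In RNA from whole shoots, fewer cells that express a gene and less RNA per cell cannot be told apart, which holds for all values given here.

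gst2, also named GST4 or GSTIV, encodes an isozyme known in maize for conjugating chloroacetanilide herbicides and for its induction by safeners. The WT ABA libraries were again the lowest, with 42.9, 47.1 and 58.2 CPM. The mop1-1 ABA libraries had 105, 92.3 and 110.2 CPM, all above WT ABA. The means were 102 ± 9.18 CPM (SD, n = 3) and 49.4 ± 7.93 CPM (SD, n = 3), and the log2 fold change was 1.05 (SE 0.20). Without ABA, gst2 had 109, 70.6 and 90.2 CPM in WT MS and 67.9, 68.7 and 100.7 CPM in mop1-1 MS, which overlapped. All WT ABA libraries lay below all WT MS libraries, with a Group B log2 fold change of -0.86 (SE 0.20). The Group A estimate was 0.37 (SE 0.20), where the libraries overlapped, the Group D estimate was -0.18 (SE 0.19), and the interaction was 1.24 (SE 0.28). The order of the group means was that of gst31, and here too only mop1-1 MS and WT ABA, among neighbours in that order, did not overlap.

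MRP1, also named mrpa1, encodes the transporter of glutathione conjugates. Its libraries held 202, 206 and 302 CPM in WT MS. With ABA the WT values were 65.7, 96.7 and 112 CPM, each below each WT MS value. The means were 237 ± 56.6 CPM (SD, n = 3) and 91.4 ± 23.6 CPM (SD, n = 3), a log2 fold change of -1.37 (SE 0.28). In mop1-1 MS the libraries had 159, 153 and 147 CPM, a narrow range that lay between those of WT MS and WT ABA without overlapping either. The Group D log2 fold change was -0.63 (SE 0.28), so that MRP1 was lower in the mutant without ABA while gst31 and gst2 overlapped. In mop1-1 ABA the values were 258, 118 and 245 CPM. Replicate 2, the library with the lowest total count, lay near the highest WT ABA value, and the others lay within the range of WT MS. All mop1-1 ABA libraries were still above WT ABA, with a Group C log2 fold change of 1.18 (SE 0.28). The Group A estimate was 0.44 (SE 0.28), and it was 0.25, 0.72 and 0.30 without mop1-1 ABA replicate 1, 2 and 3. The interaction was 1.81 (SE 0.40). In the order of means, WT MS, mop1-1 ABA, mop1-1 MS and WT ABA, only mop1-1 MS and WT ABA of the neighbours did not overlap.

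**Figure D1:**
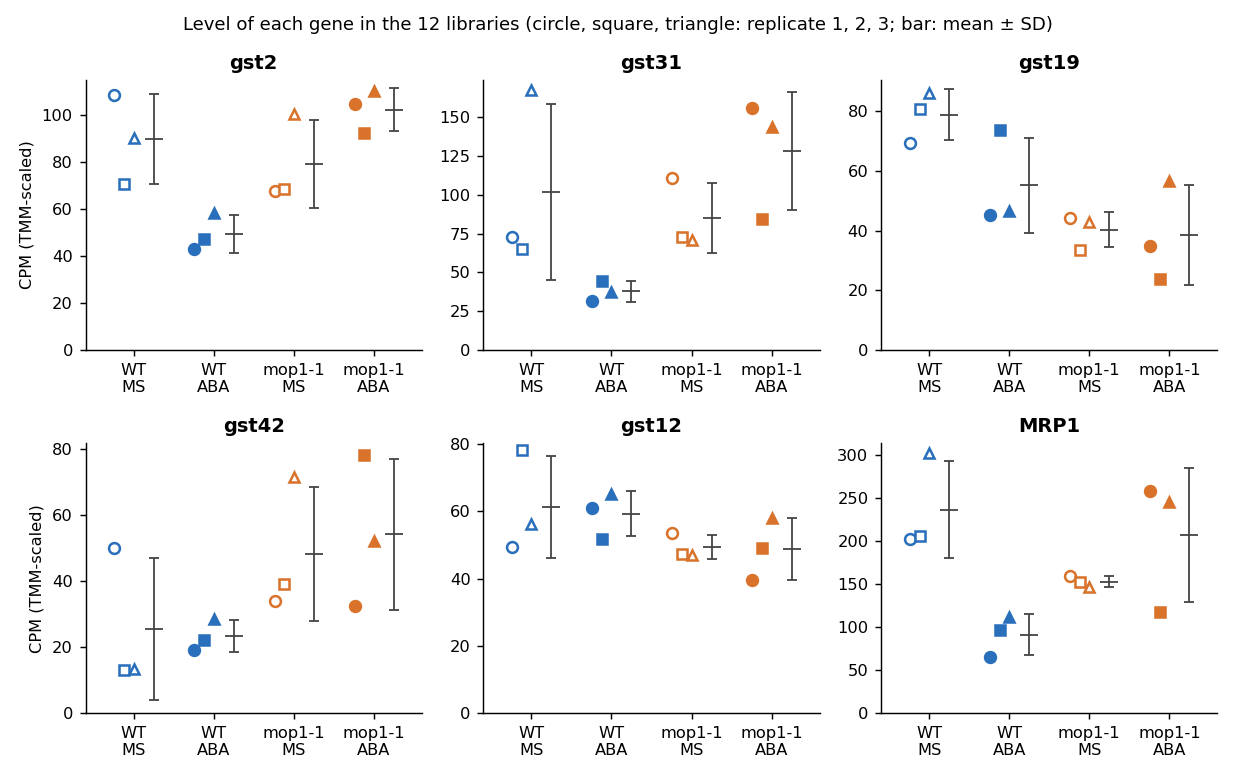
Level of the 6 genes, in CPM after TMM scaling, in each of the 12 libraries. Circles, squares and triangles are replicates 1, 2 and 3, open symbols are MS, filled symbols are ABA, and bars show the mean ± SD of 3 libraries. For gst2, gst31 and MRP1 the 3 WT ABA libraries lie below the libraries of every other group, and for gst19 both mop1-1 groups lie low, with means of 40.3 and 38.6 CPM.

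gst19, a further GST gene, had lower means in mop1-1 than in WT both without and with ABA. WT MS had 69.5, 80.9 and 86.1 CPM. mop1-1 MS had 44.3, 33.5 and 43.0 CPM, each below each WT MS library. The means were 78.8 ± 8.53 CPM (SD, n = 3) and 40.3 ± 5.90 CPM (SD, n = 3), with a Group D log2 fold change of -0.97 (SE 0.28). With ABA the genotypes overlapped, at 45.2, 73.7 and 46.6 CPM in WT ABA and 35.0, 23.96 and 56.8 CPM in mop1-1 ABA. The Group C log2 fold change was -0.52 (SE 0.28), and leaving out 1 library moved it from -0.90, without mop1-1 ABA replicate 3, to -0.25, without WT ABA replicate 2, and -0.27, without mop1-1 ABA replicate 2. ABA gave -0.51 (SE 0.28) in WT and -0.06 (SE 0.28) in mop1-1, with overlapping libraries in both. The interaction estimate of 0.45 was close in size to its standard error of 0.39.

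gst42, also a GST gene, had the widest spread of the 6 genes, relative to its mean, within WT MS and within mop1-1 MS. Within WT ABA and mop1-1 ABA the spread of gst19 was wider. WT MS held 50.2, 13.0 and 13.4 CPM, so that replicate 1 was far above its replicates. WT ABA had 19.2, 22.2 and 28.6 CPM and mop1-1 MS had 34.0, 39.2 and 71.4 CPM. mop1-1 ABA had 32.5, 78.1 and 52.1 CPM, all above WT ABA. Between the genotypes the log2 fold change was 1.22 (SE 0.50) with ABA and 0.92 (SE 0.50) without, and in the latter the libraries overlapped because of WT MS replicate 1 alone: without it the Group D fold change was 1.87. The same library set the sign of Group B, which was -0.13 (SE 0.50) with it and 0.82 without it, and of the interaction, which was 0.30 (SE 0.70) with it and -0.65 without it. Over all groups together, the highest library was 6.01-fold above the lowest. This was 2.57-fold for gst2, 5.34-fold for gst31, 3.595-fold for gst19, 1.98-fold for gst12 and 4.60-fold for MRP1. The means, 54.3 ± 22.9 CPM in mop1-1 ABA, 48.2 ± 20.3 CPM in mop1-1 MS, 25.5 ± 21.4 CPM in WT MS and 23.3 ± 4.81 CPM for WT ABA (SD, n = 3), overlapped from each neighbour to the next.

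gst12, the remaining GST gene, varied least. In WT its values were 49.3, 78.4 and 56.4 CPM without ABA and 60.9, 52.0 and 65.2 CPM with it. In mop1-1 seedlings they were 53.5, 47.4 and 47.2 CPM without ABA and 39.5, 49.2 and 58.1 CPM with it. The means were 61.4 ± 15.1 CPM in WT MS, 59.4 ± 6.75 CPM in WT ABA, 49.4 ± 3.58 CPM in mop1-1 MS and, in mop1-1 ABA, 48.9 ± 9.27 CPM (SD, n = 3). The groups overlapped in every comparison, and the log2 fold changes were -0.28 (SE 0.18) in Group C, -0.31 (SE 0.18) in Group D, -0.01 (SE 0.18) in Group A and -0.05 (SE 0.18) in Group B.

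**Figure D2:**
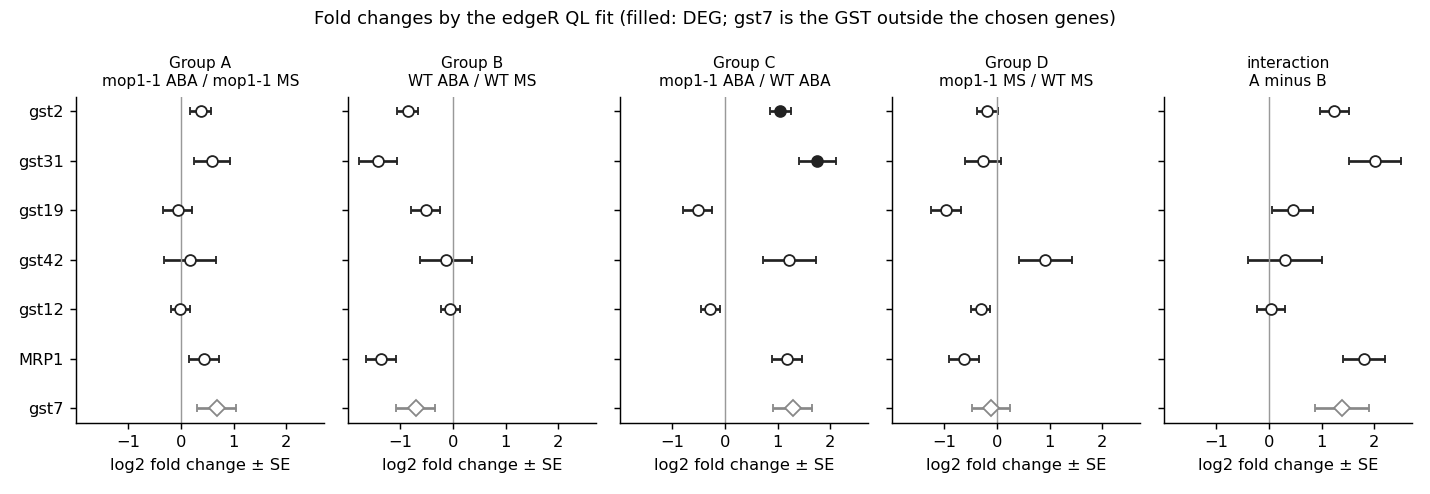
Log2 fold change ± standard error of the 6 genes and of gst7, a GST gene that was not among those chosen, in Groups A to D and for the interaction, by the edgeR quasi-likelihood fit. Filled circles are called as differentially expressed, which holds for gst2 (1.05) and gst31 (1.76) in Group C. gst2, gst31 and MRP1 lie left of 0 in Group B and right of 0 in Group C.

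A gene was called a differentially expressed gene (DEG) when its adjusted p was at most 0.05 and its log2 fold change at least 0.95 in either direction. In Group C the quasi-likelihood (QL) test of edgeR called 2 of the 6 genes, gst2 and gst31, where 1.19% of all 26401 features were called. It called 0 of the 6 in Group D, where 0.905% of features were called, and 0 in Groups A and B and for the interaction, where 0% were. At an unadjusted p under 0.05, the QL test had 0 of the 6 genes and 1011 of the 26401 features in Group A. In Group B it had 3 of the 6 and 1887 of 26401, and in Group C 4 of the 6 and 4219 of 26401. In Group D it had 2 of the 6 and 2702 of 26401, and for the interaction 3 of the 6 and 1120 of 26401. Since these comparisons took part in the choice of the genes, the counts and shares are set side by side and nothing is read from them.

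The other tests called more genes, among the 6 and among all features. The edgeR exact test called gst2, gst31 and MRP1 in Group C (2.95% of features), gst31 and MRP1 in Group B (0.159%), gst19 in Group D (2.08%) and none in Group A (0.00379%). DESeq2 called the same genes in Group C (3.33% of features), Group B (0.258%) and Group D (2.41%) and none in Group A (0.0492%), and for the interaction it called gst2, gst31 and MRP1 (0.102%). gst42 and gst12 were called by none of the 3 tests in any comparison. Groups of libraries that did not overlap, in either direction, were seen for gst2, gst31, gst42 and MRP1 in Group C (24.8% of features), for gst2, gst31 and MRP1 in Group B (11.9%), for gst19 and MRP1 in Group D (13.3%) and for none in Group A (9.71%). The median log2 fold change of the 6 genes was 1.12 in Group C, beside 0.02 over all features, -0.69 in Group B, beside -0.01, 0.27 in Group A, beside 0, and -0.29 in Group D, beside -0.01. All 6 estimates were below 0 in Group B and all 6 interaction estimates were above 0, although those of gst12 and gst42 were smaller than their standard errors. Groups A to D share libraries in pairs, so their values for a gene do not stand apart from each other. The calls, medians and signs are those of genes chosen with these comparisons in view, and nothing is read from them about the set.

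The 2 QL calls depended on single libraries. The call of gst2 in Group C was kept when each of 8 of the 12 libraries was left out. Among these, only WT ABA replicate 3 and mop1-1 ABA replicate 2 belong to the comparison, and the others are MS libraries. The call ended without WT ABA replicate 1, WT ABA replicate 2, mop1-1 ABA replicate 1 or mop1-1 ABA replicate 3. The call of gst31 was kept in 7 of 12, where mop1-1 ABA replicate 2 was the only library of the comparison left out. It ended without any WT ABA library, mop1-1 ABA replicate 1 or mop1-1 ABA replicate 3. With 1 library fewer the fold changes themselves moved little, from 0.96 to 1.19 for gst2 and from 1.59 to 1.98 for gst31. MRP1 was called in Group C without WT MS replicate 3 and without mop1-1 ABA replicate 2, and its fold change ran from 0.99 to 1.46. The Group D fold change of gst19 lay between -1.05 and -0.86, and the Group B fold change of MRP1 between -1.54 and -1.16. For gst42 the range was wide, 0.86 to 1.48 in Group C and 0.52 to 1.87 in Group D.

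**Figure D3:**
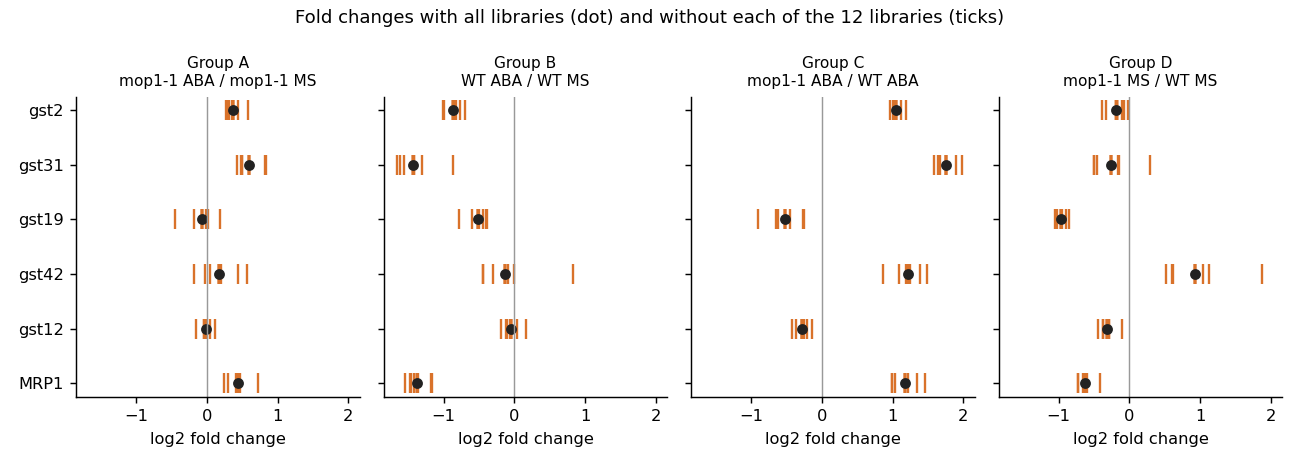
Log2 fold changes of the 6 genes in Groups A to D with all 12 libraries (dot) and with each library left out in turn (ticks). The Group C values of gst2, gst31, gst42 and MRP1 stay above 0 in each case, while gst42 in Group B passes from -0.13 to 0.82 without WT MS replicate 1.

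RefSeq gives 32 maize genes a name of gst and a number, and GST genes under other names were not looked for. Of the 32, 6 could be joined to the count table, the 5 described above and gst7 (Zm00001d042104, chromosome 3). The other 26 were not analysed here. gst7 was not among the chosen genes, but it could be joined only because a workbook that the paper titles a list of DEGs held it. It is therefore not an unselected comparison. In WT its values were 73.1, 59.4 and 135 CPM without ABA and 31.7, 78.3 and 53.2 CPM with it. In the mutant they were 81.3, 70.5 and 96.8 CPM without ABA and 146, 84.7 and 167 CPM with it. As with gst31 and gst2, the mean was highest in mop1-1 ABA, 133 ± 42.6 CPM (SD, n = 3), and lowest in WT ABA, 54.4 ± 23.3 CPM (SD, n = 3), and the libraries of these groups did not overlap. The Group C log2 fold change was 1.28 (SE 0.37) and did not pass the edgeR QL test (adjusted p = 0.114), whereas the edgeR exact test and DESeq2 called it. In Group A the log2 fold change was 0.68 (SE 0.36, adjusted p = 1), in Group B -0.71 (SE 0.36, adjusted p = 0.728), in Group D -0.11 (SE 0.36, adjusted p = 0.968) and for the interaction 1.39 (SE 0.51, adjusted p = 1.00), all by the edgeR QL test. gst7 adds no call to those of gst2 and gst31 by the QL test, and 5 of the 6 GST genes joined are the chosen ones, so no share of the family is read from these counts.

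Across the 12 libraries, gst31, MRP1 and gst7 varied together, also within groups. Correlations of log2 CPM are a description, since the libraries share groups and scaling and the group means took part in the choice of the 6 genes, and the value within groups is that of the deviations from the group means. Pearson's r was 0.87 between gst31 and MRP1 (Spearman's rho 0.83) and 0.79 within groups. It was 0.89 between gst31 and gst7 (rho 0.84) and 0.81 within groups, and 0.79 between MRP1 and gst7 (rho 0.63) and 0.81 within groups. In WT MS replicate 3, gst31, MRP1 and gst7 were all above their own means over the 12 libraries, by 1.10, 0.93 and 0.71 on the log2(CPM + 1) scale, and in WT ABA replicate 1 all 3 were below them, at -1.28, -1.25 and -1.34. gst2 followed them across groups (r of 0.77 with gst31 and 0.78 with MRP1) but less within groups (0.10 and 0.34). gst19 showed the reverse, with r near 0 across libraries for gst31 (0.002) and gst7 (0.04) and 0.31 for MRP1, and higher values within groups (0.56, 0.73 and 0.62). gst19 and gst42 had an r of -0.64 (rho -0.65), and -0.28 within groups. Between gst31 and gst42, which were both higher in mop1-1 ABA than in WT ABA, r was 0.15 across libraries and -0.51 within groups.

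**Figure D4:**
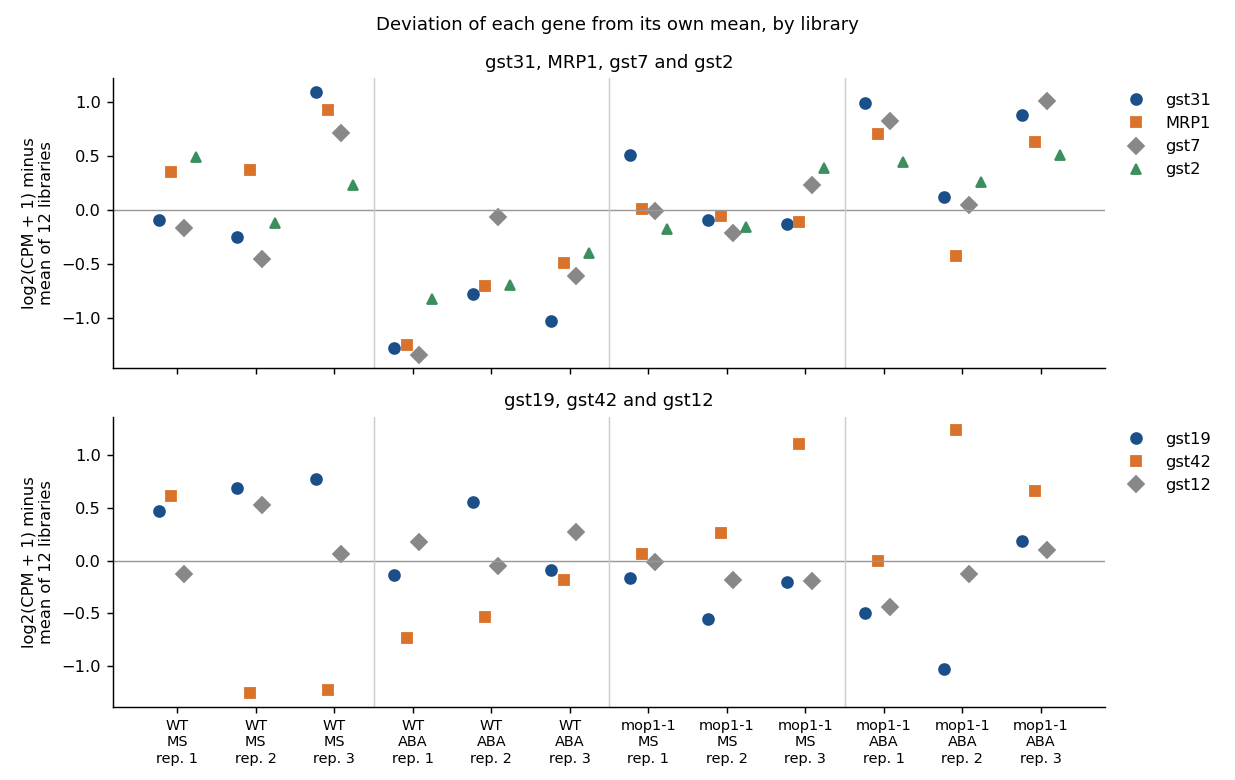
Deviation of each gene from its own mean over the 12 libraries, on the log2(CPM + 1) scale, for gst31, MRP1, gst7 and gst2 (top) and gst19, gst42 and gst12 (bottom), with the 4 groups between vertical lines. In the top panel WT ABA replicate 1 lies low for all 4 genes and WT MS replicate 3 high for gst31, MRP1 and gst7, and in the bottom panel gst42 is spread widely within WT MS.

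For each gene, the tested features with the most similar profile were listed by Pearson's r of log2 CPM over 12 libraries, among 18306 features with a mean of at least 5 CPM. For gst31 these were Zm00001d031267 (r of 0.97), In2-1 (Zm00001d028693, r of 0.95, rho 0.90) and Zm00001d018454 (r of 0.95). In2-1, also named saf1, is known in maize as a gene induced by herbicide safeners. Its level was 141 ± 82.9 CPM (SD, n = 3) in WT MS, 47.9 ± 13.0 CPM in WT ABA, 99.8 ± 19.4 CPM in mop1-1 MS and, in mop1-1 ABA, 130 ± 39.5 CPM. The other lists held no feature with a gene name. They were led by Zm00001d036197 for gst2 (r of 0.95), Zm00001d029608 for MRP1 (r of 0.95), Zm00001d002079 for gst19 (r of 0.95), Zm00001d009243 for gst42 (r of 0.97) and Zm00001d021519 for gst12 (r of 0.89). With so many features compared over 12 libraries, high values of r arise readily, and no p is given.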

How the data were processed

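Counts per gene of the 12 libraries were used as the authors deposited them, in whole numbers and not normalized. According to the methods and the processing notes, the paired reads were quality checked (fastp 0.21.0), trimmed, aligned to the B73 genome of version 4 (HISAT2 2.2.1), and assembled and counted (StringTie 2.1.4). Whether counting used the strand, and how reads that match several GST copies were assigned, is not given in the sources used here, so values of near-identical copies are uncertain.

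Features that reached 0.58 CPM in at least 3 libraries were scaled by TMM, and a quasi-likelihood model with 4 group means was fitted to all 12 libraries (edgeR 4.0.16 in R 4.3.3), with Benjamini-Hochberg adjustment over 26401 features. The standard error is the size of the log2 fold change divided by the square root of F. Correlations used log2 of CPM after adding 1. As alternatives the scaling (RLE), the filter (none, filterByExpr), the libraries fitted (the 6 of a comparison, all but 1), the features fitted (annotated genes), the test (edgeR exact test, DESeq2 1.42.0), a block for the replicate number and calls with no fold threshold were tried. The code was tested on simulated data. The replicates are called biological in the methods, and p-values set the difference between groups against the spread between replicates. Libraries with the same replicate number were not closer than others, so they were not treated as paired. Their r was -0.18 to 0.11 over 18 pairs, with 1 over 0.1. For pairs with unlike numbers r was -0.21 to 0.255 over 36 pairs, with 8 over 0.1.

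The 6 genes, the gene lists and the tests were chosen with earlier results of these data known. Named genes are the 6, the genes of the GST, MRP, glutathione synthesis and antioxidant lists that could be joined, and for each of the 6 the features, up to 3, with the highest r. Names and chromosomes came from a RefSeq table (Zm-B73-REFERENCE-NAM-5.0), joined through older identifiers in the study's workbook, which matched 2103 features and named 359. The paper titles this workbook a list of DEGs for ABA-treated mop1 samples, so only genes listed there could be joined. gst7, the leaf, root and antioxidant genes and the named In2-1 passed this step too, so none is an unselected comparison. RefSeq names 3 MRP genes, of which 1 was joined, and 2 glutathione synthesis genes, of which 0 were joined. The gene lists were matched by gene name alone, so family members under other names are missing from them. Levels were not compared between genes, since no lengths were used. Counts of mop1 are not reported here.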

Additional observations from a re-analysis of the deposited data

How the results depend on the processing

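Counts of called genes among the 6 changed with the test more than with the scaling or the filter. In Group B the edgeR exact test and DESeq2 each called 2 (1 GST gene) where the QL test called 0. In Group D the fit on 6 libraries, the exact test and DESeq2 each called 1, gst19, where the QL test on 12 libraries called 0. For the interaction DESeq2 called 3, of which 2 were GST genes, against 0. With a replicate block the QL test called 1 in Group C, gst2, against 2, and with 1 library left out it called 0 to 3 of the 6 and 0 to 2 of the GST genes. For the block, the fit on 6 libraries and the fits without 1 library, shares over all features are not given here. Whether calling changed for the 6 genes or for features in general therefore cannot be told from those counts. In Group C the exact test and DESeq2 each called 3. The count equalled that of the QL test on all libraries under 21 of 21 alternatives in Group A, 19 of 21 in Group B, 11 of 21 in Group C, 18 of 21 in Group D and 18 of 19 for the interaction. Of 588 alternative values of the 30 fold changes of the 6 genes, 572 had the sign reported. In Groups A to D, leaving out a library outside the comparison hardly changes a value, so this share does not measure stability. Of the 588 values, 13 moved by more than 1 standard error, all of them on leaving out a library. Those not given above were gst2 without mop1-1 MS replicate 3 (0.58 in Group A and -0.39 in Group D), gst19 without mop1-1 ABA replicate 3 (-0.45 in Group A) and gst12 without WT MS replicate 2 (0.17 in Group B and -0.10 in Group D). Signs changed for gst31 in Group D, gst19 in Group A (up to 0.19), gst42 in Group A (down to -0.19), Group B and the interaction, and gst12 in Group A (up to 0.12), Group B and the interaction (down to -0.18). The causes were not tested. The spread between 3 libraries, not the number of counts, limits these values.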

Other observations

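Superoxide dismutases, which remove superoxide radicals, were the antioxidant enzymes that could be joined to the count table, 2 of 12 named by RefSeq. sod3 (Zm00001d037859) had nearly the same mean in each group, 75.3 ± 13.7 CPM in WT MS, 72.0 ± 11.7 CPM in WT ABA, 73.1 ± 14.8 CPM in mop1-1 MS and, in mop1-1 ABA, 70.9 ± 4.38 CPM (SD, n = 3). sod9 (Zm00001d047479) had 77.8 ± 21.7, 125 ± 46.9, 81.9 ± 36.9 and 77.5 ± 47.2 CPM in the same groups, and its Group B log2 fold change of 0.68 did not pass the edgeR QL test (adjusted p = 0.794).

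Of the features within 5 identifier numbers of the 6 genes, 32 were in the count table, 16 were tested and 0 were called in any comparison by the edgeR QL test. That test called 1.19% of all features in Group C, 0.905% in Group D and 0% in the other comparisons. With shares this low, nothing is read from the count of 0. Zm00001d046225, the identifier next to MRP1, followed MRP1 closely over the 12 libraries (Pearson's r 0.88) at a mean of 7.72 CPM, with log2 fold changes of -1.61 in Group B, 1.44 in Group C and 2.16 for the interaction. Whether the 2 genes overlap was not checked. The strand of counting is not stated, so reads in any overlap could not be told apart. Zm00001d029696 followed gst42 (r of 0.91), and Zm00001d027539 and Zm00001d027541, on either side of gst12, followed gst12 (r of 0.79 each). For the other tested neighbours r was 0.63 or lower. In the RefSeq order gst12 lies beside gst11, with 0 coding genes between them, gst42 lies beside gst32, and gst7 beside gst28, and these neighbouring GST genes were not analysed here.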
